A study of Mus musculus with 8 samples.

Results

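The 8 genes described here encode the enzymes and cofactors that copy, write and remove methylation of cytosine in DNA: *Dnmt1*, *Uhrf1* and *Uhrf2*, *Dnmt3a* and *Dnmt3b*, and *Tet1*, *Tet2* and *Tet3*. They were chosen by gene symbol out of the 27179 genes in the expression table. 7 of the 8 were among the 11406 genes that passed a filter on low values, and *Dnmt3b* was not. The samples were C2C12 cells, an immortal mouse myoblast line that carries no engineered allele here. They were harvested either while proliferating in growth medium with fetal bovine serum (GM) or 3 days after a confluent culture had been moved to differentiation medium with horse serum (3d DM), a condition in which these cells leave the cell cycle and fuse into myotubes. Each state had 2 input libraries of polyadenylated RNA and 2 libraries of RNA fragments precipitated with an antibody against N6-methyladenosine (m6A). No source says whether the 2 libraries of a state came from separate cultures, so the p-values measure the spread between these libraries, which may be technical. For expression in limma, this spread was fitted over all genes of like level and is not that of each gene's own replicates. A single line stands for myoblasts, and a 3d DM dish can hold unfused cells beside myotubes. In such bulk RNA, fewer cells that express a gene and less of its RNA per cell cannot be told apart.

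Maintenance methylation copies the methyl mark after DNA replication. UHRF1 binds hemimethylated CpG sites behind the replication fork and recruits DNMT1, which methylates the new strand. UHRF2 is its paralog. DNMT3A and DNMT3B place the mark on unmethylated sites, and the TET dioxygenases oxidize 5-methylcytosine, with 2-oxoglutarate as cosubstrate, as the start of its removal. Myoblasts that exit the cell cycle stop replicating their DNA, and the maintenance machinery is best known from replicating cells. m6A is a separate mark that sits in the RNA, most often at an adenosine inside the letters GGAC and near stop codons, and here it was measured on the messengers of the DNA methylation genes.

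The m6A peaks of these messengers are shown first, since the results on m6A turn on where they lie. Each sequence is a stretch of an exon that all the named libraries had inside a peak. Where a region held several such stretches, the one with the most GGAC is shown, and others of that region held none. A longer stretch was cut to the 120 bases with the most GGAC. A stretch that was not wholly coding was cut to 30 bases round the first GGAC. Bases are 5′ to 3′ on the gene's strand, positions are from mm10, and capitals mark GGAC. The first 4 were shared by all 4 peak lists or by both lists of 1 state on *Dnmt1* and *Uhrf1*, and the last 4 come from *Dnmt3a*, *Tet2* and *Tet3*.
*Dnmt1* exon 10, coding, chr9:20932115-20932199, minus strand, in all 4 lists: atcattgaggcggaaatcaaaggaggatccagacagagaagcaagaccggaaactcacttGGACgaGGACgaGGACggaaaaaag
*Dnmt1* exon 23, coding, chr9:20919840-20919915, minus strand, in all 4 lists: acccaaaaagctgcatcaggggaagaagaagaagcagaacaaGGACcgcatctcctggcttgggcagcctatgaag
*Dnmt1* exon 31, coding, chr9:20912226-20912308, minus strand, in both GM lists only: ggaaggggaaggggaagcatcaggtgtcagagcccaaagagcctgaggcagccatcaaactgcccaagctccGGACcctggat
*Uhrf1* exon 13, coding, chr17:56318256-56318375, plus strand, in both GM lists only: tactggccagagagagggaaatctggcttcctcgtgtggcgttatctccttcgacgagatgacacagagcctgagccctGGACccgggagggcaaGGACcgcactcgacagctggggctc
*Dnmt3a* exon 23, last exon, chr12:3907830-3907859, plus strand, in all 4 lists: accaagaacgagaGGACggagaaaagttca
*Tet2* exon 12, last exon, chr3:133466694-133466723, minus strand, in both 3d DM lists only: gccagaccaccaaGGACgacctgtgagcag
*Tet3* exon 3, coding, chr6:83403446-83403509, minus strand, in both GM lists only: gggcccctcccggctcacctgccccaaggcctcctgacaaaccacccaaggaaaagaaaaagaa
*Tet3* exon 11, coding, chr6:83368493-83368612, minus strand, in all 4 lists: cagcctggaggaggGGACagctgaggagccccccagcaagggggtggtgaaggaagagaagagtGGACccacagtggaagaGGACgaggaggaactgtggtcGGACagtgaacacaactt

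The expression table holds 1 normalized value per gene and input library, with nearly the same total in each, so sequencing depth is unknown. Of 11406 genes tested, 17.0% were called at an adjusted p of 0.05 and 9.96% were called higher in GM. The median gene was 0.22 higher in GM on the log2 scale. All 10 muscle differentiation markers were called higher in 3d DM and all 12 proliferation markers higher in GM, counts that became 4 and 4 without 3d DM replicate 1 and, for the muscle markers, 6 without 3d DM replicate 2. The summed muscle markers stood at 7617 in GM replicate 1 and 1758 in GM replicate 2, against 161253 to 200232 in 3d DM, so the GM libraries differed in this respect. *Myod1*, the determination factor of the lineage, lay between 1016 and 1713 in all 4 libraries. The defining markers of adipocytes, *Adipoq*, *Fabp4* and *Plin1*, were listed at 0 in every library, although *Lpl*, which other cells also express, was called higher in GM (log2 change 2.25), and the summed endothelial markers did not exceed 10.5. Leukocyte markers summed to between 12.2 and 27.4 in the 4 libraries.

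Both genes at the centre of maintenance methylation fell with differentiation, while *Dnmt3a* and the 3 Tet genes passed neither the adjusted nor an unadjusted threshold of 0.05 in limma. *Uhrf1* was 10.3-fold and *Dnmt1* 3.63-fold higher in GM than in 3d DM, and these were the 2 called members of the 7 tested. Among all tested genes 17.0% were called. Both GM libraries lay above both 3d DM libraries for 3 tested members, *Dnmt1*, *Uhrf1* and *Uhrf2*, against 37.0% of all tested genes. They lay below both for *Tet2* and *Tet3*, against 16.8% of all, and the states overlapped for *Dnmt3a* and *Tet1*. The plot of the members' values by library shows this order.

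**Figure D1:**
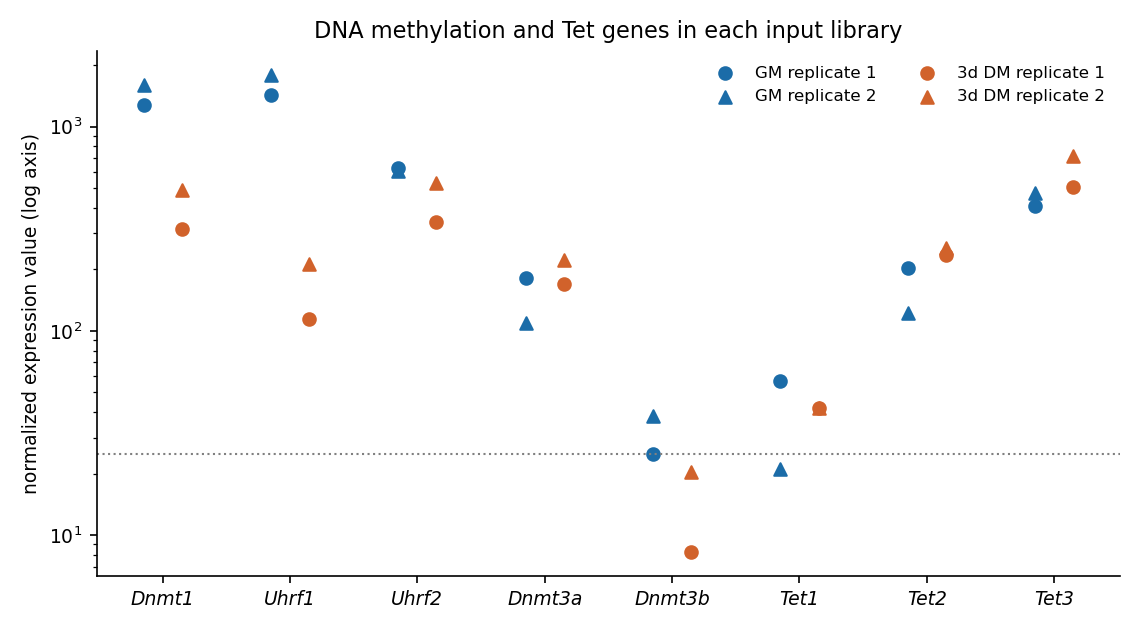
Normalized expression value of the 8 genes in each input library, on a log axis, with GM in blue, 3d DM in orange, replicate 1 as circles and replicate 2 as triangles. The dotted line is the value of 25.1 that a gene had to reach in 2 libraries to be tested. *Dnmt1* and *Uhrf1* are separated by state, and *Dnmt3b* reached the line in GM replicate 2 only.

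*Uhrf1*, whose product reads hemimethylated DNA, had values of 1436 and 1798 in the GM libraries and of 115 and 211 in the 3d DM libraries. The GM libraries were far above both 3d DM libraries. Its log2 change was 3.36 (SE 0.44, adjusted p = 2.46e-12, limma). The SE follows the trend over all genes of like level rather than the gene's own replicates, which lay 0.32 (GM) and 0.88 (3d DM) apart on the log2 scale. The adjusted p depended on the processing. In limma it was 0.00192 after median-of-ratios rescaling, 0.00202 after trimmed-mean rescaling and 0.241 without the filter on low values. The log2 change was 2.92 or more when each library was left out.

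*Dnmt1*, the maintenance methyltransferase, had values of 1269.8 and 1605 in GM and of 314 and 491 in 3d DM. The states did not overlap. Its log2 change was 1.86 (SE 0.43, adjusted p = 2.54e-04), with replicates 0.34 (GM) and 0.64 (3d DM) apart. This call was lost without 3d DM replicate 1 (adjusted p = 0.0844), without GM replicate 2 (0.152) and without the filter on low values (0.293), while the log2 change stayed between 1.54 and 2.18 when each library was left out. *Dnmt1* thus kept a larger part of its GM level than *Uhrf1* in these libraries. The ratio of *Dnmt1* to *Uhrf1*, each per kb of exon, was 0.510 and 0.515 in GM against 1.58 and 1.34 in 3d DM, so the libraries of the states lay apart. An exact two-sided permutation test gave p = 0.333, the smallest value that 2 libraries against 2 allow.

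*Uhrf2*, the paralog of *Uhrf1*, had values of 628 and 603 in GM and of 342 and 529 in 3d DM. Its change of 0.53 (SE 0.44) did not pass the test (adjusted p = 0.506), although both GM libraries were the higher. The *Uhrf1* to *Uhrf2* ratio per kb was 2.22 and 2.89 in GM against 0.325 and 0.388 in 3d DM. *Uhrf1* was therefore the more abundant of the pair in GM and *Uhrf2* in 3d DM, in both libraries of each state.

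The genes with the profiles nearest to *Dnmt1* and *Uhrf1* were looked up over the 4 libraries by the root mean square difference of log2 values centred on each gene's mean. For *Dnmt1* they were *Cenpl* (0.019), a centromere protein gene, *Trim59* (0.022) and *Cdk6* (0.044), a kinase of the G1 phase. For *Uhrf1* they were *Prr11* (0.049), *Cdk1* (0.087), the kinase that drives entry into mitosis, and *Wdhd1* (0.10), a replisome factor. *Cdk1* is one of the proliferation markers, whose median change was 2.70.

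In a list of partners of maintenance methylation and genes related to them, 5 of 8 genes were called higher in GM and none higher in 3d DM. The median change was 2.04 against 0.22 over all tested genes. *Hells*, a chromatin remodeler needed for methylation of repeats, showed the largest difference of the list, with values of 387 and 645 in GM and of 39.9 and 60.0 in 3d DM (log2 change 3.32, SE 0.49, adjusted p = 4.00e-10). *Cdca7* (2.60) and its relative *Cdca7l* (2.86), the DNA ligase gene *Lig1* (2.29) and the replication clamp gene *Pcna* (1.79) were the other called genes. *Pcna* is also counted among the proliferation markers, so that list and this one are not separate. *Zbtb24*, a regulator of *Cdca7*, changed by 0.09, the deubiquitinase gene *Usp7* by 0.52 and the histone methyltransferase gene *Ehmt2* by 0.54, and none of these passed. The count of 5 became 3 without GM replicate 2, and it became 0 without 3d DM replicate 1 and 0 without the filter.

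**Figure D2:**
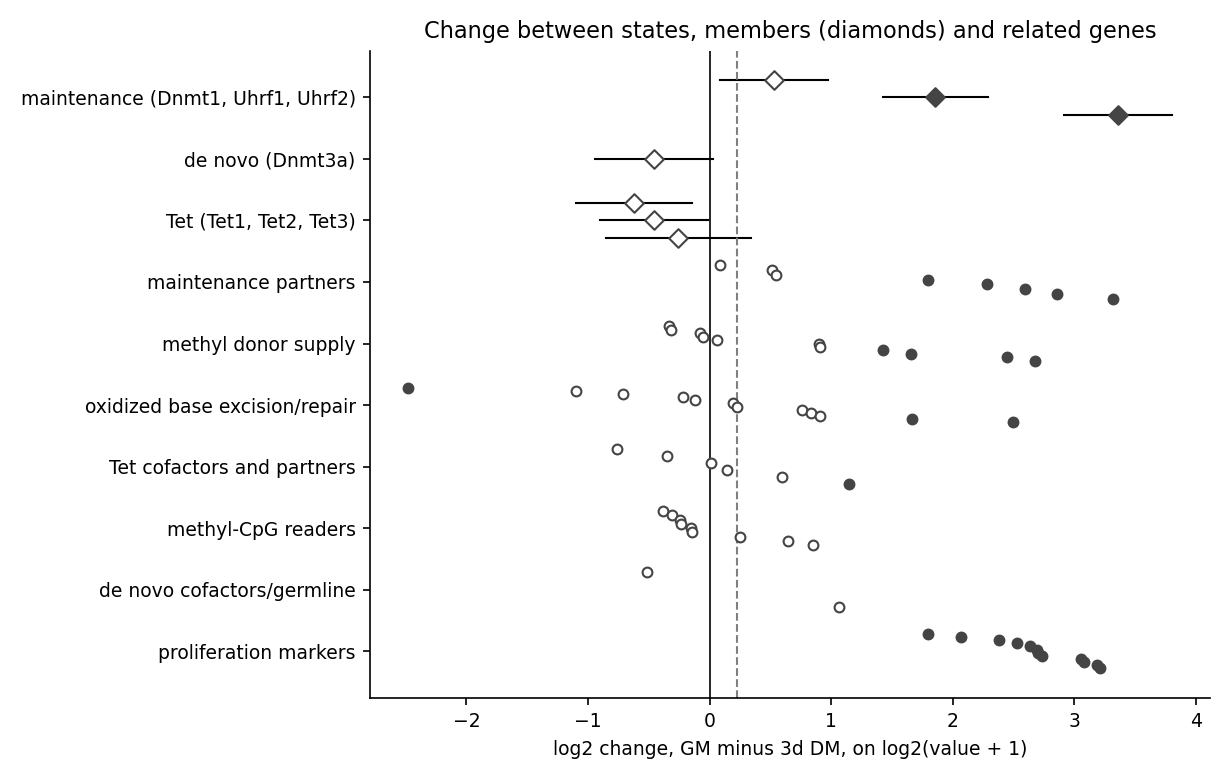
Log2 change between GM and 3d DM on log2(value + 1), with members as diamonds with their SE and the genes of related lists as circles, filled where the adjusted p was under 0.05. The solid line is 0 and the dashed line the median of all tested genes, 0.22. The 2 filled diamonds are *Dnmt1* (1.86), within the range of the proliferation markers (1.79 to 3.21), and *Uhrf1* (3.36), above it.

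E2F factors are known regulators of replication genes. The promoter windows of the members were searched for the E2F letters TTTCCCGC, TTTGGCGC, TTTCGCGC and TTTGCCGC on both strands. The search was chosen after the changes of *Dnmt1* and *Uhrf1* had been seen, so its matches are not independent evidence. The windows are those of RefSeq (GRCm38.p6), with 250 bases before and 50 after an annotated start, and all 8 members had at least 1. A match was found for 2 of 8 members, *Dnmt1* and *Uhrf1*, against 2.61% of all 27025 genes, for 3 of the 8 maintenance partners and for 5 of the 10 proliferation markers that had a window. *Dnmt1* and *Uhrf1* each matched in the window of a single annotated start, and the windows of their other starts held no match. In capitals are the letters that matched, within 30 bases.
*Dnmt1*, chr9:20952824-20952853, minus strand, match on the opposite strand: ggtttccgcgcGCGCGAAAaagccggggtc
*Uhrf1*, chr17:56304117-56304146, plus strand, match on the same strand: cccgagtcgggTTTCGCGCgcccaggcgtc
Counted from an annotated start, the matches began at position -219 of *Dnmt1* and -185 of *Uhrf1*, and *Dnmt1* held another match, TTTGGCGC, after the same start. A match of letters does not show that a factor binds there. The share over all genes was not limited to promoters of like CpG content. Whether E2F factors had a part in the change between the states was not tested.

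*Dnmt3a*, the main de novo enzyme in these cells by its level, had values of 181 and 109 in GM and of 169 and 221 in 3d DM. The states overlapped, and the change of -0.46 (SE 0.48) did not pass the test (adjusted p = 0.630). *Dnmt3b* was the lower of the pair in each library, with 25.1 and 38.1 in GM against 8.28 and 20.3 in 3d DM. It was not tested with the filter, since its GM replicate 1 value of 25.06 fell narrowly under the limit of 25.07. The untested ratio of its means was 2.21 in favour of GM, and with no filter its log2 change was 1.18 with an adjusted p of 0.852. *Dnmt3l*, the catalytically inactive cofactor of the de novo enzymes, and *Dppa3*, a germline and oocyte factor that acts on UHRF1, were listed at 0 in all 4 libraries.

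Among the Tet genes, *Tet3* had the highest value, with 410 and 471 in GM against 509 and 718 in 3d DM. Both 3d DM libraries were the higher, but the change of -0.46 (SE 0.44) did not pass (adjusted p = 0.585). *Tet2* had 204 and 122 in GM against 234 and 254 in 3d DM, again without overlap, and its change of -0.62 (SE 0.48) did not pass either (adjusted p = 0.452). After rescaling by median-of-ratios factors, which moved the median of all genes from 0.22 to 0.02, the changes were -0.83 for *Tet2* (adjusted p = 0.0756) and -0.67 for *Tet3* (adjusted p = 0.0712). *Tet1* had 57.0 and 21.1 in GM against 41.8 in both 3d DM libraries. Its GM libraries spanned the 3d DM values, and the sign of its change, -0.26 (SE 0.60, adjusted p = 0.859), turned to 0.44 without GM replicate 2. For *Tet1*, *Tet2* and *Dnmt3a*, GM replicate 1 exceeded GM replicate 2 by 0.72 to 1.39 on the log2 scale. The summed muscle markers were also higher in GM replicate 1, and whether the 2 facts are related was not tested.

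Levels can be compared between genes only per length. Per kb of exon, the order in GM was *Uhrf1* (443 ± 70.2, SD, n = 2), *Dnmt1* (227 ± 37.4), *Uhrf2* (174 ± 4.89), *Tet3* (37.5 ± 3.66), *Tet2* (17.7 ± 6.27), *Dnmt3a* (14.6 ± 5.09), *Dnmt3b* (7.30 ± 2.13) and *Tet1* (2.72 ± 1.77). Of neighbours in this order only *Tet2* and *Dnmt3a* overlapped between their libraries. In 3d DM the order was *Uhrf2* (123 ± 37.2), *Dnmt1* (63.6 ± 19.8), *Tet3* (52.2 ± 12.6), *Uhrf1* (44.6 ± 18.7), *Tet2* (26.5 ± 1.56), *Dnmt3a* (19.6 ± 3.71), *Dnmt3b* (3.31 ± 1.97) and *Tet1* (2.91 ± 0.00133). There *Dnmt1*, *Tet3* and *Uhrf1* overlapped, as did *Dnmt3b* and *Tet1*, and no other neighbours. *Uhrf1* lay above 86.8% of tested genes per kb in GM and above 31.7% in 3d DM, and *Tet1* above 1.73% and 0.642%.

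The make-up of the Dnmt family differed between the states by more than the spread between replicates. *Dnmt1* supplied 89.3% and 92.8% of the summed Dnmt value per kb in GM but 72.4% and 74.2% in 3d DM. *Dnmt3a* supplied 8.10% and 4.02% in GM but 24.8% and 21.3% in 3d DM. *Dnmt3b* stayed between 2.58% and 4.50% in the 4 libraries. The share of *Dnmt1* was 17.7 percentage points higher in GM, at 91.0% ± 2.43 against 73.3% ± 1.27 (SD, n = 2 each). The exact permutation test gave p = 0.333, its smallest value. Without length scaling the difference was 23.3 points. Since shares within a library sum to 100%, a larger share of *Dnmt3a* does not show that *Dnmt3a* itself rose.

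For the Tet family no difference in make-up exceeded the spread between replicates. *Tet3* held 57.2% and 73.1% of the summed Tet value per kb in GM against 60.5% and 66.7% in 3d DM, and the states overlapped. The share of *Tet2* was 36.3% and 24.2% in GM against 35.5% and 30.1% in 3d DM. GM replicate 1 and GM replicate 2 differed more from each other than the means of the states did.

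**Figure D3:**
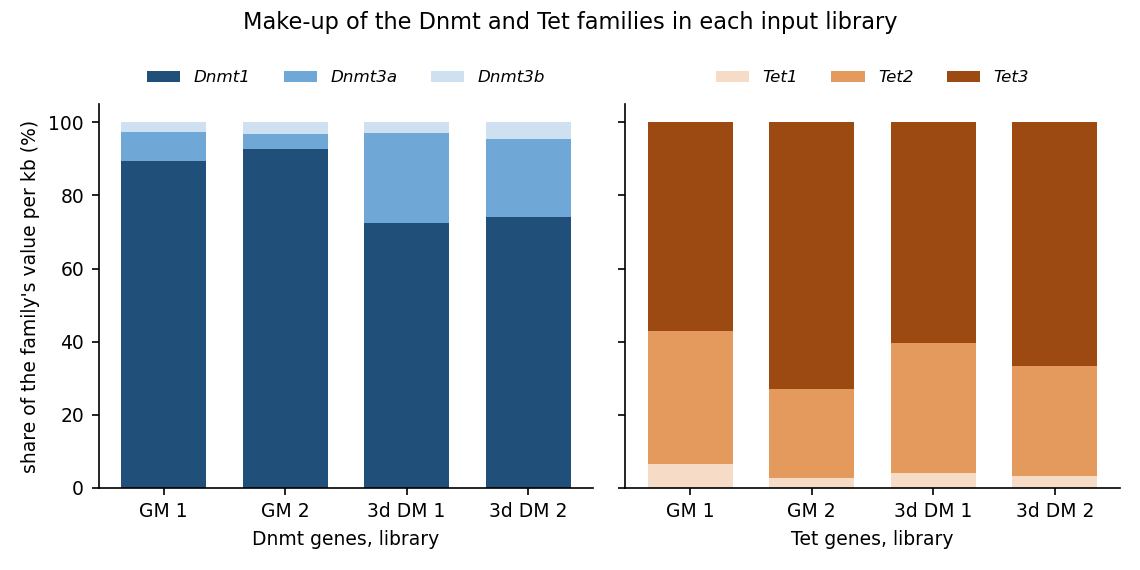
Share of each gene in its family's summed value per kb of exon, in percent, for the 3 Dnmt genes (left) and the 3 Tet genes (right) in each input library. The *Dnmt3a* band grew from at most 8.10% in GM to at least 21.3% in 3d DM, while the Tet bands differed as much between the GM libraries as between states.

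Between the families, the summed Dnmt value per kb was 225 and 274 in GM against 68.6 and 105 in 3d DM. The Tet sum was 61.1 and 54.9 in GM against 71.6 and 91.7 in 3d DM. The ratio of the Dnmt sum to the Tet sum was thus 3.68 and 4.99 in GM against 0.957 and 1.14 in 3d DM, apart in every library, with an exact permutation p of 0.333.

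Related genes outside the 8 were counted from lists. Of 11 genes that supply the methyl donor, 4 were called higher in GM and none higher in 3d DM, with a median change of 0.90 against 0.22 over all tested genes. They included the serine hydroxymethyltransferase gene *Shmt1* (log2 change 2.45), *Ahcy* (1.66), which clears the methylation product S-adenosylhomocysteine, and *Mthfd1* (1.43). *Ahcy* had values of 1898 and 2502 in GM and of 577 and 821 in 3d DM (adjusted p = 0.00102). This call was lost without the filter (adjusted p = 0.293) and when either GM library or 3d DM replicate 1 was left out. The *Ahcy* log2 change stayed between 1.41 and 1.92 when each library was left out. *Mat2a*, the gene of S-adenosylmethionine synthesis, changed by 0.06 (adjusted p = 0.956). The *Mthfd1* call was lost whichever library was left out (adjusted p = 0.0647 to 0.586) and under both rescalings (0.0575 and 0.0566). The count of 4 became 2 without GM replicate 1, 2 without GM replicate 2, and 0 without 3d DM replicate 1 or without the filter.

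For the excision and repair of oxidized or deaminated bases, 12 of 13 genes were tested, 2 were called higher in GM and 1 was called higher in 3d DM. The glycosylase genes *Neil3* (log2 change 2.49) and *Mbd4* (1.66, adjusted p = 0.0392) were higher in GM. The *Mbd4* call was lost whichever library was left out (adjusted p = 0.102 to 0.277) and with a pseudocount of 0.1 (0.0505), and the *Neil3* call was lost without 3d DM replicate 1 (0.0812). *Tdg*, the glycosylase that removes the products of TET oxidation, had 531 and 457 in GM against 262 and 322 in 3d DM, a change of 0.76 that did not pass (adjusted p = 0.290). *Gadd45a*, a stress and growth arrest gene that has been linked to DNA demethylation, had 353 and 145 in GM against 1021 and 1561 in 3d DM (log2 change -2.48, SE 0.44, adjusted p = 5.18e-07). Its 3d DM libraries were far above both GM libraries. This call was lost without GM replicate 2 (log2 change -1.84, adjusted p = 0.0859), without 3d DM replicate 1 (0.0832) and without 3d DM replicate 2 (0.0959), while the log2 change stayed between -3.12 and -1.84 when each library was left out. None of the 3 calls of this list held without the filter on low values. *Gadd45b* changed by -1.10 (adjusted p = 0.0805).

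None of the 9 methyl-CpG readers was called by limma in either direction, 0 had an unadjusted p under 0.05, and their median change was -0.16. *Mbd2* had the largest difference of this list, 0.85 (adjusted p = 0.203). Of 6 tested cofactors and partners of the Tet enzymes, *Idh2*, a mitochondrial source of 2-oxoglutarate, was called higher in GM (1.15, adjusted p = 0.0419), with values of 2311 and 1296 in GM and of 618 and 982 in 3d DM. This call was lost with the filter in 3 libraries (adjusted p = 0.0513), without a filter (0.572), with no trend (0.0730) and whichever library was left out (0.110 to 0.729). *Ogt*, the O-GlcNAc transferase that binds TET proteins, changed by -0.76 (adjusted p = 0.249). *Zfp57* and *Trim28*, which protect imprinted methylation, changed by -0.52 and 1.06 and did not pass (adjusted p = 0.559 and 0.0618). None of 10 germline genes that promoter methylation is known to silence, such as *Dazl*, *Mael* and *Sycp1*, reached the filter in either state. Their summed values were 22.1 to 26.3 in GM and 23.6 to 42.6 in 3d DM. Over the 6 pathway lists, with 8, 2, 9, 12, 11 and 6 tested genes, 13 genes were called, against 17.0% of all tested genes. The count was 16 under both rescalings, and it was lower whichever library was left out.

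Peaks of m6A were called by the authors in each precipitated library against its own input, with a p-value and a fold enrichment for each transcript. Lines of a gene that shared at least 1 base of exon were merged here into regions over the 4 lists. The lists held 13273 and 11101 regions (GM) and 13134 and 9376 regions (3d DM), so replicate 1 had more in each state. 6 of the 8 members had a peak in at least 1 list, and *Tet1* and *Dnmt3b* had none in any list. Among tested genes with a symbol, 76.2% had a peak in at least 1 list. *Dnmt1*, *Dnmt3a*, *Tet2* and *Tet3* had a peak in all 4 lists, against 42.6% of tested genes. *Uhrf1* had peaks in both GM lists and in no 3d DM list, as did 2.67% of tested genes. *Uhrf2* had peaks in both lists numbered 1 and in neither numbered 2.

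Finding a peak depends on the level of the RNA, and the members differ in level. At a GM level within 1.2-fold of that of *Tet1* and *Dnmt3b*, 37.8% and 29.2% of other genes had a peak in at least 1 GM list. In 3d DM the shares were 41.3% and 11.3%. For *Uhrf1* in 3d DM, 64.3% of 1119 genes with a like level had a peak in at least 1 of the 2 lists and 40.4% in both. Whether *Uhrf1* RNA lost m6A or had too few reads for a peak was not tested.

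The members held 23 regions in all, 17 and 9 in the GM libraries and 14 and 7 in the 3d DM libraries. The states overlapped, and the difference of the means, 2.5 regions, had an exact permutation p of 0.667. 5 of the 23 were in all 4 lists, against 30.8% of all 19683 regions. In both GM lists and no 3d DM list were 4, against 3.83%. These 4 lay on *Dnmt1*, *Uhrf1* and *Tet3*. RNA of *Dnmt1* and *Uhrf1* was lower in 3d DM, and the share over all regions was not limited to genes with such a change. The part of RNA level in this count was not tested. 1 region was in both 3d DM lists and no GM list. 9 were in a single list, against 37.8% of all regions. 4 of these belonged to GM replicate 1 and 4 to 3d DM replicate 1, which held 2471 and 2528 of all 7448 such regions. Another 4 were in both lists numbered 1 and in neither numbered 2. At a stricter peak p of 1e-05, 10 regions remained, 2 of them in all 4 lists and 2 in both GM lists only. With a fold enrichment of at least 4, 1 region was in both GM lists and no 3d DM list. Shares over all regions were not taken for these stricter settings, for both 3d DM lists or for the lists numbered 1. The map of peaks along the RNA shows these regions by library.

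**Figure D4:**
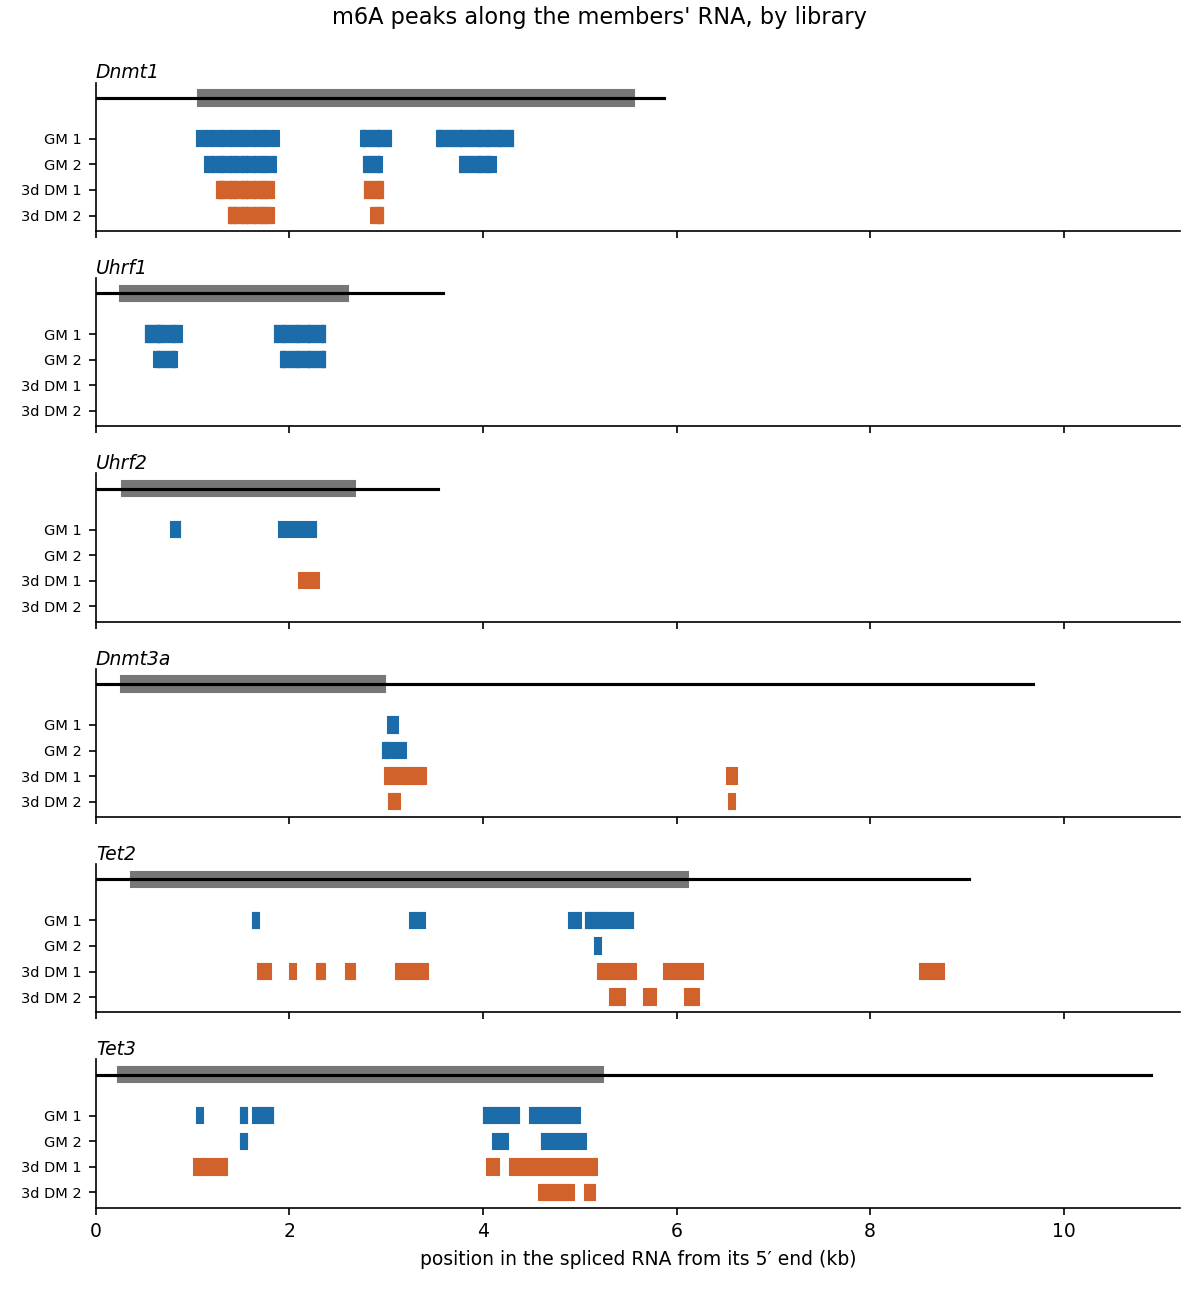
m6A peaks on the spliced RNA of the 6 members that had any, in kb from the 5′ end of the transcript with most peak lines, with GM libraries in blue and 3d DM libraries in orange. The black line is the RNA and the grey box its coding part. The *Uhrf1* peaks appear in GM alone, the *Dnmt1* region at exons 27 to 32 was not called in 3d DM, and the single region of *Dnmt3a* starts near the stop codon, with a further stretch in 3d DM from lines on a spliced transcript. One *Tet3* peak of GM replicate 1 lies on another transcript and is not drawn.

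Exon numbers and places here are those of the transcript with most peak lines, and other *Dnmt1* transcripts can differ. On it, 1052 bases precede the coding part. *Dnmt1* carried 3 regions, all in the coding part of this transcript or at the start of that part. The first, between exons 4 and 16, was the strongest by p-value, with a fold enrichment of 7.93 and 6.15 in GM and of 6.56 and 8.63 in 3d DM. It is the region of the exon 10 sequence above, in which 3 GGAC follow each other. The other stretches of this region that all 4 lists shared held 1 GGAC or none. Its p-value ranged from 7.94e-63 in GM replicate 1 up to 3.24e-07 in 3d DM replicate 2. The second, at exons 22 to 25, had folds of 2.62 and 2.07 in GM and of 2.74 and 8.35 in 3d DM, and 3d DM replicate 2 stood apart from the other libraries. The last, at exons 27 to 32, was called in GM only, with folds of 3.17 and 2.70. *Dnmt1* RNA was itself lower in 3d DM, and the part of that fall in the missing peak was not tested.

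*Uhrf1* carried 2 coding regions. The first, at exons 3 to 5, had folds of 2.77 and 2.29 in GM, and the second, at exons 12 to 16, had 2.49 and 2.98. Both were weaker in fold, a measure relative to each library's own input, than the first *Dnmt1* region. Neither was called in 3d DM. *Uhrf2* had a coding region at exons 11 to 14 with a fold of 2.59 (GM) and 3.73 (3d DM) in the libraries numbered 1, and another, in exon 3, in GM replicate 1 (3.50).

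*Dnmt3a* had a single region, which started at the end of the coding part in the last exon, 23, and ran into the 3′ untranslated region. In 3d DM, 1 line in each list lay on another transcript that is spliced within this exon. These lines also covered a stretch further along the exon, which replicate 1 joined to the main stretch across the splice. The fold of the region was 4.96 and 4.56 in GM against 7.94 and 5.29 in 3d DM. Both 3d DM libraries were above both GM libraries, by an amount that did not pass the test given below.

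*Tet2* carried 10 regions over the 4 lists. Of the 9153 genes with a peak, 40, *Tet2* included, had as many or more, and the median gene had 2. This ranking counted peaks of any strength and genes of any RNA length, and the *Tet2* RNA had 9021 bases. The lowest peak p-value of each *Tet2* region (exomePeak) ran from 2.00e-11 to 0.00676, both in 3d DM replicate 1. The lists of the libraries differed: GM replicates 1 and 2 had 4 and 1 of the regions, and 3d DM replicates 1 and 2 had 8 and 3. 5 of the 10 lay in exon 3, the long exon near the start of the coding part, and 5 in the last exon, 12. One *Tet2* region was in all 4 lists, in the coding part of exon 12 (chr3:133467278-133467795), with folds of 24.5 and 4.43 in GM and of 8.29 and 4.51 in 3d DM. No base of it was shared by all 4 lists, since the peaks only overlapped one with the next. The region across the stop codon was called in both 3d DM libraries, with folds of 9.79 and 10.0, and in neither GM library. *Tet2* had a higher value in 3d DM, and the part of the RNA level in this difference was not tested.

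*Tet3* carried 5 regions. The one in all 4 lists lay in the coding part of the last exon, 11 (chr6:83368102-83369266), with folds of 8.92 and 10.2 in GM and of 6.35 and 15.9 in 3d DM, and the states overlapped. In each GM library the peaks of this region lay in separate stretches, which lines of 3d DM replicate 1 joined. Each fold is that of the line of lowest p. The region holds the stretch with 4 GGAC shown above. Another in exon 3 was called in both GM libraries only, with folds of 5.25 and 7.43, and its shared stretch held no GGAC. The other 3 were called in GM replicate 1, joined in 1 case by 3d DM replicate 1. The last exon held the peaks nearest to the stop codon in *Tet2*, *Tet3* and *Dnmt3a*. The midpoint of the *Tet3* region lay at -643 bases from the end of the coding part, within the -4094 to -493 bases of the regions of *Dnmt1*, *Uhrf1* and *Uhrf2*.

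The fold enrichment was compared between the states for the 6055 regions found in all 4 lists, by limma on log2 fold. At an adjusted p of 0.05, 0.00% were called, and 211 had an unadjusted p under 0.05. The 5 regions of members all had an adjusted p of 0.999. The log2 changes were -0.11 (SE 0.52) for the first and -1.04 (SE 0.48) for the second *Dnmt1* region, -0.45 (SE 0.47) for *Dnmt3a*, 0.77 (SE 0.73) for *Tet2* and -0.08 (SE 0.63) for *Tet3*. The second *Dnmt1* region had the lowest unadjusted p of the 5, 0.0495. Its low fold in 3 libraries and 8.35 in the fourth are seen in the plot of fold enrichment.

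**Figure D5:**
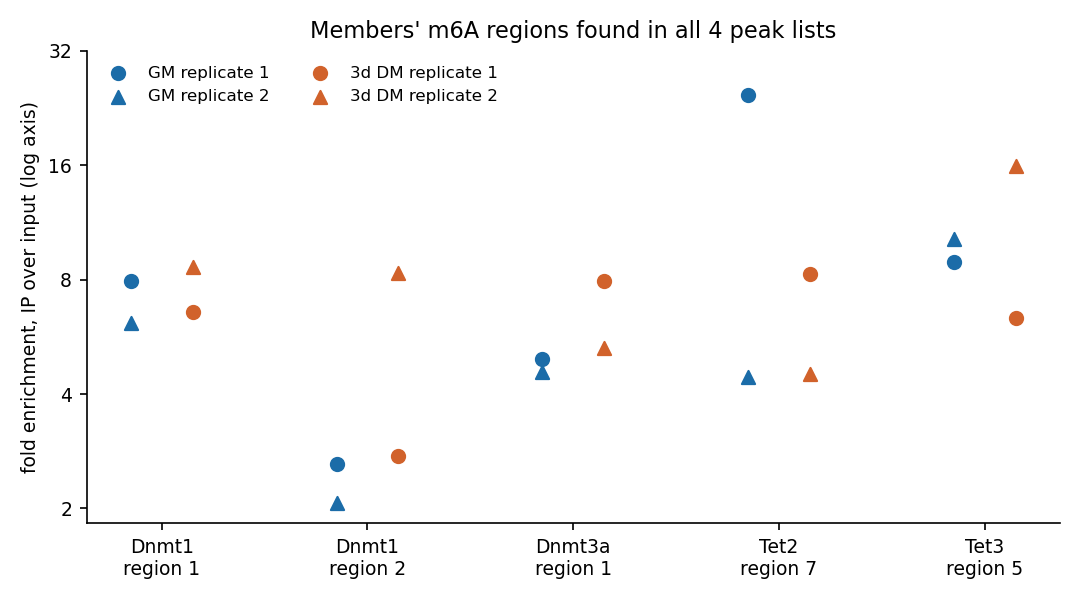
Fold enrichment of precipitated over input RNA, on a log axis, for the 5 members' regions found in all 4 lists, with GM in blue, 3d DM in orange, replicate 1 as circles and replicate 2 as triangles. The states overlap for the first *Dnmt1* region, *Tet2* and *Tet3*. The *Tet2* point at 24.5 and the *Dnmt1* point at 8.35 come from single libraries.

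Each region's peak line of lowest p was searched for GGAC and for the longer GGACT, which contains it, on the RNA strand and for their reverse complements. GGAC was present in 13 of the 23 regions of members, 56.5%, against 63.3% of 19661 regions over all genes, and both sets had a median length of 211 bases. GGACT was present in 3 of 23, 13.0%, against 31.1% of all. Members held 5.28 GGAC per kb on the RNA strand and 2.79 per kb as the reverse complement, and all regions 5.07 and 3.13. The first *Dnmt1* region held 6 GGAC and no GGACT, where 63.7% of 578 regions within 10% of its length held GGACT and 96.0% held GGAC. The *Tet3* region of the last exon held 6 GGAC and 1 GGACT. 8 of the 10 *Tet2* regions held no GGAC, and most of these were 61 to 121 bases long.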

How the data were processed

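MeRIP-seq and RNA-seq of C2C12 cells in GM and 3d DM were analysed from the deposited files, with samples grouped by their labels. The submitters' processing notes name HISAT2 (2.1.0), edgeR and mm10. The expression table deposited by the authors holds 1 normalized signal per gene and library, called TMM in its name, without counts. The peak lists deposited by the authors give a p-value and a fold, the ratio of precipitated over input RNA, for each peak and transcript, from exomePeak run on each sample. Their starts count from 0 and are given here from 1. All per-sample columns were used. Without read numbers, the depth is unknown and no counting error or detection limit is stated.

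Genes that reached 2 cpm of the column total in at least 2 libraries were log2 transformed after adding 1 and tested by limma 3.58.1 in R 4.3.3, which fitted a trend of the spread on intensity, and p-values were adjusted by Benjamini-Hochberg. A filter in 3 libraries, as in the study's methods, was an alternative. limma was used because the values are not counts. Fold changes are on the log2(value + 1) scale and understate those of low genes. Exon lengths were the union of curated RefSeq exons, and peaks were placed on GENCODE M21 transcripts and the GRCm38 sequence, which is mm10. Motif letters were read from the same sequence. The fit was run on simulated data in which every gene had the spread of the trend, as the fit assumes. That run cannot show how the fit does where genes or libraries depart from the trend. Calculations used Python 3.11.15, pandas 2.3.3, numpy 2.4.6, scipy 1.17.1 and pysam 0.24.0.

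The 8 genes, the lists and the motifs were chosen with earlier results of these data known, so no list is independent evidence. Named genes are all members, list genes with an adjusted p under 0.05 (up to 4 a list by size, and others needed for a count), and the 3 nearest profiles of each called member. Other list genes are named for their role, after their values were seen. Some list genes and 1 peak sequence are counted but not reported here by name or letters. Alternatives were other filters, pseudocounts of 0.1 and 4, no trend, the replicate number as a block, 2 rescalings, stricter peaks, other line choices and each library left out. Genes overlapping on the opposite strand (such as *Dnmt3aos*, *Dnmt3bos* and *B230319C09Rik* at *Tet3*) could share reads if strand was not used in counting, which is not given in the sources used here.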

Additional observations from a re-analysis of the deposited data

How the results depend on the processing

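The 2 called members stayed 2 under other pseudocounts, the filter in 3 libraries, no trend, both rescalings and the replicate block. They were 0 without a filter on low values and 1 to 2 when each library was left out, *Uhrf1* being the one that stayed. The pathway lists' 13 called genes became 0 without a filter and 0 to 8 when each library was left out. The 23 regions of members became 10 at a peak p of 1e-05, and the difference in the *Dnmt1* share of 17.7 points became 23.3 without length scaling. The causes of these changes were not tested. Signs turned for values that had passed no test. When each library was left out, the *Tet1* change ranged from -0.95 to 0.44, and the change in fold from -0.31 to 0.090 for the first *Dnmt1* region, from -0.46 to 2.00 for the *Tet2* region and from -0.74 to 0.59 for the *Tet3* region, which was 0.23 with the line of highest fold. Over all genes, 1136 were called higher in GM and 800 in 3d DM. The counts were 1325 and 1340 after median-of-ratios and 1323 and 1340 after trimmed-mean rescaling, 74 and 80 without a filter, and 44 and 101 without 3d DM replicate 1. Replicate numbers pair nothing that the labels name. With the replicate block the counts were 705 and 593, the adjusted p was 1.77e-07 for *Uhrf1* and 0.0118 for *Dnmt1*, and 2 members and 0 of their regions were called. The pathway lists' count became 10 with the block, with the calls of *Idh2* (adjusted p = 0.216), *Mbd4* (0.116) and *Mthfd1* (0.0874) lost. Deviations of same-numbered libraries correlated across genes with r = 0.29 for expression and 0.13 for fold. No region of a member was called under any of these settings, and 1 region of 3305 was at a peak p of 1e-05. Depth is unknown, so what it limits cannot be given.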
